A study of Mus musculus with 4 samples.

Results

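The Fgf ligands and receptors were followed by single-cell RNA-seq in the proximal testis of P14 mice, the region that holds the rete testis (RT) and the neighbouring seminiferous tubules (ST). The set was taken by gene symbol and held 10 of the 31053 genes in each count matrix: the secreted ligands Fgf1, Fgf2, Fgf9 and Fgf18, the intracellular homologous factors Fgf12 and Fgf13, and the receptors Fgfr1, Fgfr2, Fgfr3 and Fgfr4. There were 2 control and 2 Sox17-cKO libraries, all from C57BL/6 mice, and each library pooled cells of 3 pups, so that p-values measure the spread between pools. The labels give the genotype SF1Cre for controls and SF1Cre:Sox17flox/flox for Sox17-cKO, while the study's methods describe Sox17flox/flox controls that lack Cre, so it is not settled whether Cre was present in the control cells or whether their Sox17 alleles were floxed. SF1 is the product of Nr5a1, a gene active in the gonadal somatic lineage (Sertoli, Leydig and RT cells), and the deletion was therefore not limited to the RT by the driver.

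Fgf ligands are secreted proteins that bind heparan sulfate chains and signal through a small family of receptor tyrosine kinases, which activate the Ras-ERK cascade, its target genes and its feedback inhibitors. Fgf9 is known as a ligand that promotes testis formation in the fetal gonad, Fgf2 as a factor used to maintain spermatogonial stem cells, and Fgf1 as a ligand that binds all Fgf receptors. Fgf12 and Fgf13 are not secreted and bind voltage-gated sodium channels. Fgfr2 is known as the receptor of many epithelia, its epithelial and mesenchymal splice forms binding different ligands, and the 3′ counts used here do not separate splice forms.

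In the GENCODE vM21 annotation of GRCm38, the build the reads were mapped to, Fgf2 (ENSMUSG00000037225) lies on chromosome 3 (37348346-37410108), Fgf9 (ENSMUSG00000021974) on chromosome 14 (58070547-58112720), Fgf18 (ENSMUSG00000057967) on chromosome 11 (33117430-33147400), Fgf12 (ENSMUSG00000022523) on chromosome 16 (28160098-28753068) and Fgf13 (ENSMUSG00000031137) on chromosome X (59062145-59568071). Fgfr1 (ENSMUSG00000031565) lies on chromosome 8 (25513654-25575718), Fgfr3 (ENSMUSG00000054252) on chromosome 5 (33721674-33737068), Fgfr4 (ENSMUSG00000005320) on chromosome 13 (55152640-55168759) and Fgfr2 (ENSMUSG00000030849) on chromosome 7 (130162451-133123350). All 10 genes, with Fgf1 (ENSMUSG00000036585), are annotated as protein-coding. The Fgfr2 span overlaps 69 other genes, 33 of them on the opposite strand, but it is set by 1 of 27 transcripts. The other 26 end at or before 130266263 and overlap no other gene, and the exons of Fgfr2 share bases with those of 1 gene, Ctbp2, on the same strand. Fgf2 overlaps 3 genes on the opposite strand, Nudt6 and Fgf2os among them, and shares exonic bases with Nudt6 and, on its own strand, with Gm43439. Fgfr1 (Gm16159) and Fgfr3 (G630022F23Rik) each share exonic bases with 1 gene on the opposite strand, while the 2 genes opposite Fgf1 and the 1 opposite Fgf9 share none. The study's methods state that Cell Ranger was run with its default settings, which for 3′ libraries count reads on the strand of the gene, so it is the same-strand pairs (Fgfr2 with Ctbp2, Fgf2 with Gm43439) whose reads may not be told apart.

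RefSeq promoter windows (250 bases before to 50 after the start, GRCm38.p6) were at hand for 8 of the 10 genes. The windows of Fgfr2 (chr7:130266759-130267058, minus strand) and Fgf9 (chr14:58072436-58072735, plus strand), a receptor and a ligand whose highest levels were in RT cells, are shown with the letters ACAAT in capitals, the core bound by SOX factors, searched on both strands (ACAAT or ATTGT).
Fgfr2: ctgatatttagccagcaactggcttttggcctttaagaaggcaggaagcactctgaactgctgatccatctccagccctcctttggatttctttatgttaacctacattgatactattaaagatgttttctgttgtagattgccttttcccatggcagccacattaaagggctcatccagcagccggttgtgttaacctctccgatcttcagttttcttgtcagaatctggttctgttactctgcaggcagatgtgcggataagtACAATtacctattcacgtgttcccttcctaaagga
Fgf9: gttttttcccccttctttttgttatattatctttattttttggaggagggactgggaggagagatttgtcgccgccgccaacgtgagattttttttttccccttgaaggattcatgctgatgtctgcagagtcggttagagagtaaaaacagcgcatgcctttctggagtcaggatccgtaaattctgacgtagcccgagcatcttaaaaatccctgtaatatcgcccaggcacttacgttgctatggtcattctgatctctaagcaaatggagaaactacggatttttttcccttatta
The Fgfr2 window held 1 match and the Fgf9 window none. In all, 2 of the 15 windows of these genes had a match (the Fgfr2 window and 1 of 4 windows of Fgf13), against 31.0% of 32851 windows of the same length, and a match is a description of letters and not a binding site.

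Of 46001 barcodes, 22567 had 1000 to 4500 detected genes and were retained (5174 to 6135 per library, with a median of 5040 to 7872 UMIs, the counts of distinct molecules, per cell). The cells fell into 20 clusters, formed without the 10 genes, 96 further pathway genes and Sox17, and 13 classes named from markers were compared. Levels are given as CPM, the usual depth-scaled unit, here the UMIs of a gene relative to all UMIs of its class in the library, and each set of 4 values is in the order control 1, control 2, Sox17-cKO 1, Sox17-cKO 2. RT-like cells numbered 36, 73, 33 and 86. They held the RT markers Pax8 (343 CPM), Cdh1 (139 CPM), Krt8 (132 CPM) and Krt18 (70.9 CPM), while Krt19 (5.48 CPM) and Cldn7 (1.79 CPM) were near 0. The 13 Sertoli markers summed to 3260 to 4202 CPM in RT-like cells against 20640 to 22346 CPM in tubule Sertoli-like cells. The 6 endothelial markers summed to 281 to 511 CPM in RT-like cells, carried by Kdr (401 CPM), while Pecam1 (0.946 CPM) and Cldn5 (1.03 CPM) were near 0. The undifferentiated spermatogonia markers summed to 310 to 421 CPM in RT-like cells and 462 to 594 CPM in their own class. The markers of germ cells in general summed to 67.5 to 252 CPM in RT-like cells and 2124 to 2320 CPM in undifferentiated spermatogonia-like cells. The interstitial stroma markers summed to 152 to 322 CPM against 4164 to 4661 CPM. The part of such cells in the RT-like levels was not tested. The Sertoli valve (SV) Sertoli-like cells, the Sertoli cells that border the RT, numbered 64, 38, 48 and 78. They were told from tubule Sertoli-like cells by Wnt4, Tesc, Wfdc18 and Tnfrsf12a. Cyp26a1, also on the list of SV markers, is not among the genes named for this. The whole list summed to 1782 to 2341 CPM in SV and 170 to 263 CPM in tubule Sertoli-like cells. Barcodes found in more than 1 library numbered 190, 2 of them RT-like.

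Sox17, the deleted gene, had 356, 312, 45.5 and 34.6 CPM in RT-like cells. Both Sox17-cKO libraries were far below both controls, and the difference passed the test across all genes (log2 -3.14 ± 0.33 SE, edgeR quasi-likelihood test, Benjamini-Hochberg adjusted p = 0.0179). In endothelial-like cells, which SF1 is not known to mark, Sox17 had 508, 344, 102 and 101 CPM (log2 -2.03 ± 0.43 SE, edgeR adjusted p = 0.476).

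Fgfr2 was the main receptor gene of RT-like cells. It had 427, 481, 439 and 563 CPM there, from 871 UMIs, and the genotypes overlapped. The next class, Leydig-like cells, had 137, 66.0, 54.2 and 62.2 CPM. The lowest RT-like value was thus above the highest Leydig-like value, and the difference passed the test in a fit over all 13 classes with the library as a block (log2 2.50 ± 0.21 SE, edgeR adjusted p = 2.8e-14). Leydig-like cells in turn were above fibroblast-like cells (28.3, 39.0, 38.5 and 35.8 CPM, log2 0.70 ± 0.21 SE, edgeR adjusted p = 0.0064). Interstitial stroma-like (28.6, 35.0, 40.8 and 34.9 CPM), peritubular myoid-like (31.8, 27.5, 30.8 and 25.8 CPM), pericyte-like (27.8, 22.1, 34.7 and 10.5 CPM) and endothelial-like cells (15.4, 11.1, 20.4 and 28.1 CPM, 10 UMIs in all) followed, and neighbours in this run did not differ beyond their spread. Below them, every SV Sertoli-like, tubule Sertoli-like, germ-cell and macrophage-like library was under 7 CPM, and the step from endothelial-like to SV Sertoli-like cells (0, 6.65, 3.12 and 1.85 CPM) passed the test (log2 2.70 ± 0.89 SE, edgeR adjusted p = 0.0152). Fgfr2 was thus high in RT-like cells and near 0 in the Sertoli-like cells they adjoin. Over all genes, 51.2% passed in such pairs of classes. These pairs are neighbours in the order of a gene of the set and need not be neighbours in the order of the other genes, so this share is not a like background.

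The share of cells with an Fgfr2 UMI was also highest in RT-like cells. It was 89.9% of the 228 RT-like cells pooled over the 4 libraries (95% Clopper-Pearson interval 85.2 to 93.5, counting error only, median 7738.5 UMIs per cell). In tubule Sertoli-like cells it was 0.664% (interval 0.460 to 0.927, median 5179.5 UMIs). In macrophage-like cells, a class not known to use this receptor, it was 0.673% (interval 0.0817 to 2.41, 2 cells, median 6730 UMIs). The part of free RNA in these shares was not tested. After each cell was thinned to 2000 UMIs, which left out 8 RT-like cells, the RT-like share was 62.3% against 0.281% in tubule Sertoli-like cells. Fgfr2 in RT-like cells did not come from a few cells.

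**Figure D1:**
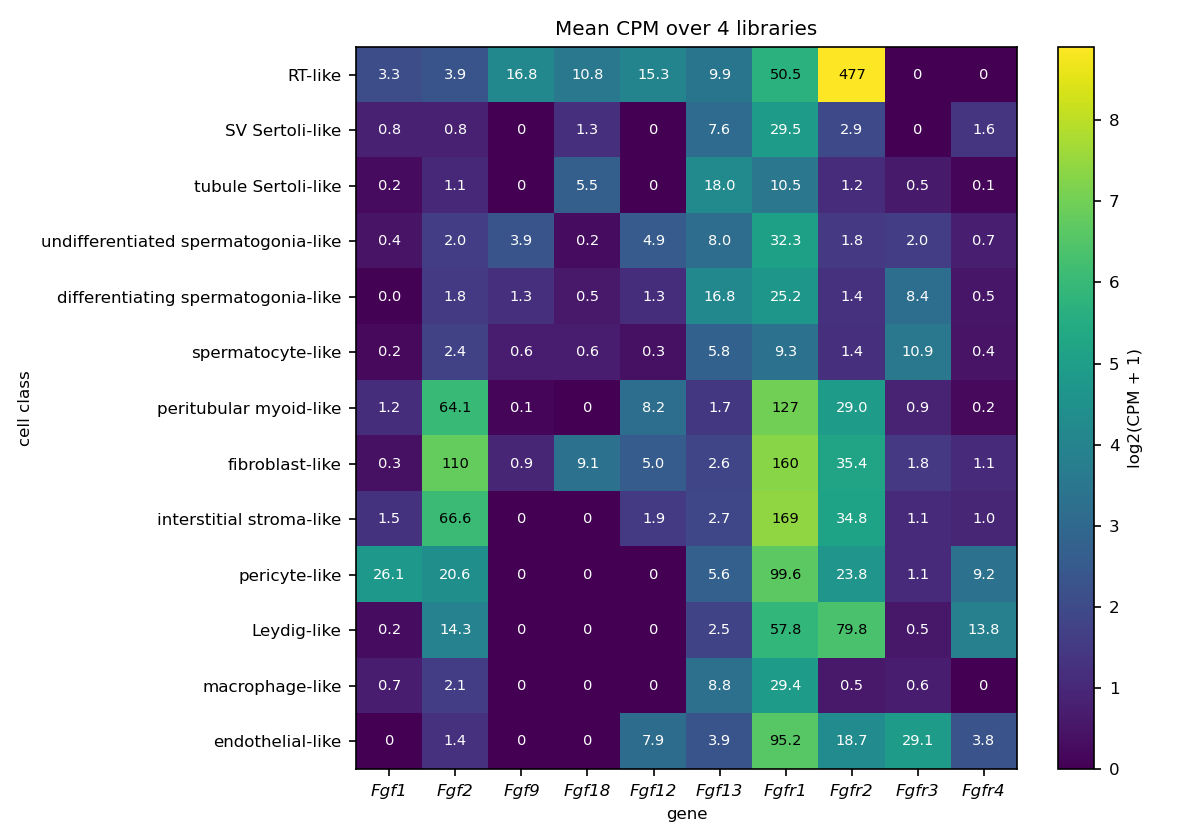
Mean CPM over 4 libraries (numbers in the cells, colour on a log2(CPM + 1) scale) of the 4 ligands, 2 homologous factors and 4 receptors (columns) in 13 cell classes (rows). Fgfr2 reached 477 CPM in RT-like cells and 79.8 CPM in the next class, Leydig-like cells, while Fgf2 and Fgfr1 were highest in the mesenchymal classes.

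Fgfr1 had its highest levels elsewhere, in the mesenchymal cells around the tubules and vessels. Interstitial stroma-like cells had 148, 181, 166 and 182 CPM, fibroblast-like cells 135, 185, 146 and 173 CPM and peritubular myoid-like cells 119, 124, 126 and 139.8 CPM. The 3 classes did not differ between neighbours in the order (edgeR adjusted p = 0.841 and 0.113). Pericyte-like cells (139, 103, 104 and 52.6 CPM) were below peritubular myoid-like cells in the fit (log2 0.58 ± 0.21 SE, edgeR adjusted p = 0.0268), although their libraries overlapped. Endothelial-like (108, 105, 61.2 and 107 CPM) and Leydig-like cells (80.5, 55.3, 33.3 and 62.2 CPM) came next, then RT-like cells with 37.8, 43.3, 41.4 and 79.7 CPM, and each of these steps stayed within the spread. The RT-like value of Sox17-cKO 2 stood apart from the other 3. Undifferentiated spermatogonia-like cells had 29.3, 28.4, 26.9 and 44.5 CPM, SV Sertoli-like cells 18.4, 23.3, 28.1 and 48.2 CPM and macrophage-like cells 17.6, 49.0, 31.5 and 19.4 CPM. Differentiating spermatogonia-like cells (25.7, 24.4, 24.2 and 26.5 CPM) were above tubule Sertoli-like cells (9.75, 7.06, 8.57 and 16.4 CPM) without overlap (log2 0.91 ± 0.19 SE, edgeR adjusted p = 3.3e-05), and spermatocyte-like cells had the lowest level (5.89, 10.3, 7.95 and 13.2 CPM). Fgfr1 thus had UMIs in every class and every library.

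Fgfr3 was found in germ cells and endothelial-like cells. Differentiating spermatogonia-like cells had 9.05, 9.85, 8.54 and 6.15 CPM and spermatocyte-like cells 6.68, 10.3, 14.7 and 11.8 CPM. Undifferentiated spermatogonia-like cells had 1.85, 1.78, 2.39 and 2.17 CPM, below the differentiating cells without overlap (log2 1.95 ± 0.40 SE, edgeR adjusted p = 6.8e-05). The endothelial-like level was the highest by mean (61.5, 22.2, 10.2 and 22.4 CPM) but rested on 13 UMIs of 72 cells, and its range overlapped that of spermatocyte-like cells. Fgfr3 was kept by the filter on low counts in the fit over all classes through endothelial-like libraries, so this step is given as levels. RT-like and SV Sertoli-like cells had no Fgfr3 UMI, and a count of 0 allows up to 3.56 CPM in control and 3.31 CPM in Sox17-cKO RT-like cells (3 UMIs over the group, counting error only). Fgfr4 was the rarest receptor. Leydig-like cells had 16.1, 12.6, 10.4 and 15.99 CPM, from 37 UMIs, and pericyte-like cells 3.47, 9.81, 7.70 and 15.8 CPM, from 19 UMIs. These ranges overlapped, and the step has no test, since the filter kept Fgfr4 through Leydig-like libraries. None of the steps among the other classes passed the test, and RT-like and macrophage-like cells had no UMI.

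Receptor choice was expressed as the share of each receptor among the UMIs of all 4, a measure that does not depend on the total of the class. In RT-like cells Fgfr2 made up 91.9%, 91.7%, 91.4% and 87.6% (mean 90.6% ± 2.05 SD, n = 4), from 113 of 123, 278 of 303, 106 of 116 and 374 of 427 receptor UMIs, and Fgfr1 the rest. Leydig-like cells were the only other class with more Fgfr2 than Fgfr1 by mean (51.7% ± 6.53 and 38.4% ± 4.92, SD, n = 4), with Fgfr4 as a further 9.56% ± 1.95. Spermatocyte-like cells were the class with the highest Fgfr3 share (49.97% ± 8.75, against 42.5% ± 6.11 for Fgfr1, SD, n = 4), and differentiating spermatogonia-like cells followed with 23.6% ± 4.11. Undifferentiated spermatogonia-like cells held 87.3% ± 5.45 Fgfr1 and 5.74% ± 1.46 Fgfr3. In the mesenchymal classes Fgfr1 made up 73.4% to 82.2% and Fgfr2 16.9% to 18.5%, and in macrophage-like cells Fgfr1 made up 96.9% ± 3.57. Tubule Sertoli-like cells held 84.3% ± 6.84 Fgfr1 and SV Sertoli-like cells 87.0% ± 13.8, the latter from 56 UMIs. The summed receptor level was 528 CPM ± 80.2 in RT-like, 206 CPM ± 20.2 in interstitial stroma-like and 198 CPM ± 27.2 in fibroblast-like cells, down to 12.3 CPM ± 4.30 in tubule Sertoli-like cells (SD, n = 4). RT-like cells therefore carried the most receptor UMIs per UMI of these 13 classes, nearly all of 1 kind.

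**Figure D2:**
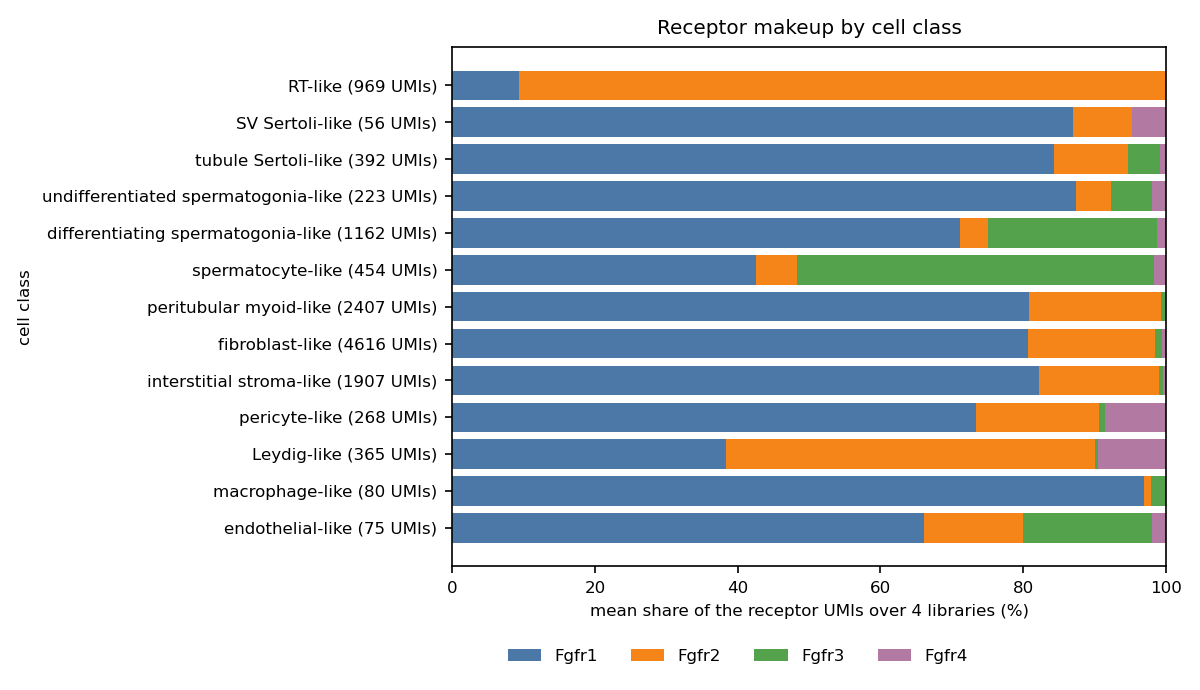
Mean share over 4 libraries (x axis, %) of Fgfr1, Fgfr2, Fgfr3 and Fgfr4 among the UMIs of the 4 receptors in each class (y axis), with the number of receptor UMIs in parentheses. Fgfr2 takes 90.6% in RT-like and 51.7% in Leydig-like cells, Fgfr3 takes 49.97% in spermatocyte-like cells, and Fgfr1 leads elsewhere.

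Fgf2 was the most abundant ligand and came from the mesenchyme. Fibroblast-like cells, the Lum and Sfrp1 class, had 110.4, 103, 97.4 and 130.1 CPM, from 2464 UMIs. Interstitial stroma-like cells had 70.7, 60.5, 68.0 and 67.3 CPM and peritubular myoid-like cells 62.6, 54.7, 72.1 and 66.9 CPM. All fibroblast-like libraries were above all libraries of both (fibroblast-like over interstitial stroma-like cells log2 0.91 ± 0.14 SE, edgeR adjusted p = 8.3e-07), and the latter 2 classes did not differ (log2 -0.09 ± 0.14 SE, edgeR adjusted p = 0.780). A further step lay between peritubular myoid-like and pericyte-like cells (20.8, 23.3, 17.3 and 21.0 CPM, log2 1.83 ± 0.22 SE, edgeR adjusted p = 8.8e-10), and Leydig-like cells had 16.1, 19.4, 10.4 and 11.3 CPM. RT-like cells had 7.56, 5.19, 0 and 3.01 CPM, from 7 UMIs, lower than Leydig-like cells (log2 2.20 ± 0.46 SE, edgeR adjusted p = 0.00012). The 5 germ and Sertoli-like classes and the macrophage-like and endothelial-like classes had means of 0.780 to 2.41 CPM. The share of cells with an Fgf2 UMI was 50.4% in fibroblast-like cells, 2.63% in RT-like cells (95% Clopper-Pearson interval 0.972 to 5.64, 6 cells), 2.02% in macrophage-like cells (0.745 to 4.35, 6 cells) and 0.606% in tubule Sertoli-like cells (0.412 to 0.859).

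Fgf9 had its highest level in RT-like cells, although that level was low. Its 18.9, 20.8, 12.4 and 15.04 CPM there came from 5, 12, 3 and 10 UMIs, spread over 28 of 228 cells (12.3%, 95% Clopper-Pearson interval 8.32 to 17.3). Undifferentiated spermatogonia-like cells, the next class, had 3.39, 5.33, 5.97 and 1.09 CPM, below every RT-like library. Fgf9 was kept by the filter on low counts in the fit over all classes through RT-like libraries alone, so this step is given as levels. Differentiating spermatogonia-like cells had 1.44, 1.56, 1.38 and 0.878 CPM, fibroblast-like cells a mean of 0.949 CPM and spermatocyte-like cells 0.641 CPM, and the steps from undifferentiated to differentiating spermatogonia-like cells (log2 1.601 ± 0.44 SE, edgeR adjusted p = 0.0030) and from spermatocyte-like to peritubular myoid-like cells (1 UMI, log2 2.21 ± 0.93 SE, edgeR adjusted p = 0.0320) passed the test. The other 7 classes had no Fgf9 UMI, among them both Sertoli-like classes. In tubule Sertoli-like cells 0 of 5118 cells held an Fgf9 UMI, at 31376632 UMIs in all.

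Fgf18 was shared by RT-like, fibroblast-like and tubule Sertoli-like cells. RT-like cells had 15.1, 8.66, 16.5 and 3.01 CPM from 15 UMIs, fibroblast-like cells 6.99, 7.62, 14.3 and 7.54 CPM from 188 UMIs and tubule Sertoli-like cells 5.49, 3.53, 5.71 and 7.36 CPM from 178 UMIs. These ranges overlapped, and Fgf18 did not pass the filter on low counts in the fit over all classes. SV Sertoli-like and the 3 germ-cell classes had means of 0.226 to 1.29 CPM, and 6 classes, the peritubular myoid-like and interstitial stroma-like cells among them, had no UMI. Fibroblast-like cells were thus the one mesenchymal class with this ligand. Fgf1 had its highest level in pericyte-like cells (45.1, 12.3, 36.6 and 10.5 CPM, 46 UMIs), above RT-like cells (0, 8.66, 0 and 4.51 CPM, 8 UMIs) in every library, and was kept by the filter through pericyte-like libraries alone, so that step has no test. The other 11 classes had means under 1.5 CPM, and none of the steps between them or from RT-like cells passed the test. Summed over the 4 ligands, fibroblast-like cells had 121 CPM ± 12.7, pericyte-like cells 46.7 CPM ± 16.1, RT-like cells 34.9 CPM ± 8.90 and SV Sertoli-like cells 2.85 CPM ± 2.64 (SD, n = 4).

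The homologous factors differed from each other. Fgf12 had 22.7, 24.2, 8.27 and 6.02 CPM in RT-like cells, from 26 UMIs in 24 cells. Peritubular myoid-like cells had 8.80, 9.85, 6.76 and 7.51 CPM, inside the RT-like range, and endothelial-like cells a mean of 7.89 CPM from 4 UMIs. Fibroblast-like (5.03 CPM) and undifferentiated spermatogonia-like cells (4.93 CPM) followed, 5 classes had no UMI, and no step could be tested, since the gene did not pass the filter in the fit over all classes. Fgf13, by contrast, was found in every class. Tubule Sertoli-like cells had 17.5, 22.1, 12.1 and 20.2 CPM and differentiating spermatogonia-like cells 15.7, 18.6, 14.3 and 18.6 CPM, with overlapping libraries, although the fit separated them (log2 0.46 ± 0.20 SE, edgeR adjusted p = 0.0382). RT-like cells had 7.56, 8.66, 8.27 and 15.04 CPM, and the mesenchymal classes 1.73 to 5.59 CPM by mean.

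RT-like cells were then compared with all Sertoli-like cells, on sums of both in each library with the library as a block. Of the Sertoli-like cells 5118 were tubule and 228 SV cells, so the comparison is mainly with the tubule, and RT-like cells were not tested against SV Sertoli-like cells alone. Classes were drawn from the same cells that were then tested, so these p-values describe the classes as clustered. Of 12562 genes tested 52.4% passed, 24.3% as higher and 28.2% as lower in RT-like cells, so that passing was common. The filter on low counts left out Fgfr3 and Fgfr4, and it kept Fgfr2, Fgf9, Fgf12, Fgf1 and Fgf2 through RT-like libraries alone, so these 5 genes are given as levels.

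Fgfr1 (10.1, 7.88, 9.42 and 18.4 CPM in all Sertoli-like cells) was higher in RT-like cells by log2 1.89 ± 0.24 SE (edgeR adjusted p = 1.9e-07), each RT-like library being above each of these. The Fgfr1 ranges of RT-like (37.8 to 79.7 CPM) and SV Sertoli-like cells (18.4 to 48.2 CPM) overlapped. Fgf13 was lower in RT-like cells (log2 -1.09 ± 0.35 SE, edgeR adjusted p = 0.0102), a call that was lost without control 2 (log2 -0.77, edgeR adjusted p = 0.150) and with DESeq2 (adjusted p = 0.104). Fgf18 did not pass (log2 0.53 ± 0.52 SE, edgeR adjusted p = 0.405). Of the 5 genes kept through RT-like cells, Fgfr2 had 0.455, 2.35, 0.819 and 1.496 CPM in all Sertoli-like cells, a pooled 1.15 CPM from 38 UMIs against 498 CPM in RT-like cells. Fgf9 and Fgf12 had 0 of 32971981 Sertoli-like UMIs. Against 3 UMIs over that group (0.0910 CPM) the pooled RT-like levels were 189-fold and 163-fold higher. These folds leave out the counting error of the 30 and 26 RT-like UMIs and are not lower bounds. Fgf1 had 8 RT-like and 7 Sertoli-like UMIs, and Fgf2 had 7 and 32.

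Within the Sertoli-like cells, those of the SV were compared with the rest in the same way, and 28.8% of 11483 genes passed (13.7% higher and 15.1% lower in the SV). Fgfr1 was higher in SV Sertoli-like cells in all 4 libraries (log2 1.43 ± 0.30 SE, edgeR adjusted p = 8.6e-05), from 50 UMIs against 337. The share of cells with an Fgfr1 UMI was 14.04% against 5.72%, and 5.66% against 1.77% after thinning to 2000 UMIs. The 5 fibroblast markers, a class rich in Fgfr1, summed to 80.2 CPM (55.2 to 120 CPM) in SV and 18.9 CPM (10.0 to 29.1 CPM) in tubule Sertoli-like cells, and the 6 Leydig markers to 176 against 20.6 CPM, and their part in this difference was not tested. Fgf13 was lower in SV Sertoli-like cells, with 6.91, 19.9, 0 and 3.71 CPM (log2 -1.45 ± 0.42 SE, edgeR adjusted p = 0.0052), a call that was lost with DESeq2 (adjusted p = 0.0597) and without Sox17-cKO 2 (edgeR adjusted p = 0.101). Fgf18 had 0, 3.32, 0 and 1.85 CPM in SV Sertoli-like cells, from 2 UMIs against 178, and was kept by the filter through tubule Sertoli-like cells alone, so the difference is given without support from the test (log2 -2.22 ± 0.86 SE). The other 7 genes, Fgfr2 (4 UMIs in SV Sertoli-like cells) among them, did not pass the filter.

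**Figure D3:**
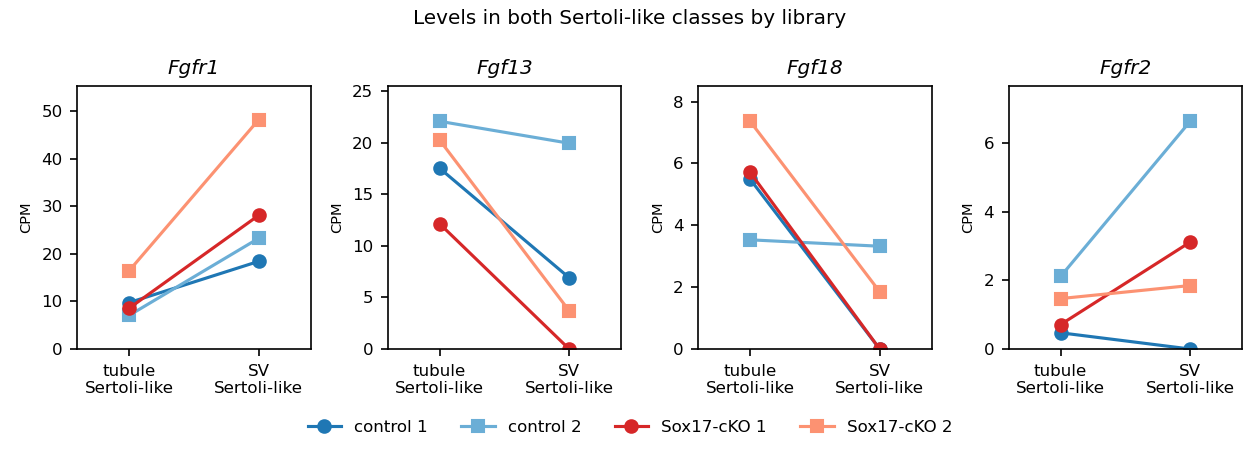
CPM (y axis, from 0) of Fgfr1, Fgf13, Fgf18 and Fgfr2 in tubule and SV Sertoli-like cells, with a line for each of the 4 libraries. Fgfr1 goes up from tubule to SV in all 4 libraries, Fgf13 and Fgf18 go down in all 4, and Fgfr2 stays at or under 6.65 CPM in both classes.

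The question of the knockout was put in each class, with 2 Sox17-cKO against 2 control libraries. In RT-like cells 6 of 6799 genes passed (0.0882%, all of them lower, and 391 at an unadjusted p under 0.05). That number and its direction depended on the processing. With the replicate number as a block 275 passed (134 higher), and below 10% mitochondrial UMIs 16 passed (6 higher). In the other 12 classes 0 genes passed by edgeR (12 to 100 at an unadjusted p under 0.05), where DESeq2 called 2 genes in fibroblast-like cells and 0 in the rest. These counts of 0 depended on the processing, since in these 12 classes 0 to 43 genes passed with the replicate number as a block and 0 to 94 when 1 library was left out (94 in fibroblast-like cells without control 1). None of the 42 tests of the 10 genes passed, nor did any reach an unadjusted p under 0.05 (lowest edgeR adjusted p = 0.997), and their log2 differences (Sox17-cKO over control) lay between -0.79 and 0.89. No alternative of processing, DESeq2 included, made any of them pass (lowest adjusted p = 0.502). In RT-like cells Fgfr2 differed by log2 0.10 ± 0.29 SE and Fgfr1 by log2 0.61 ± 0.41 SE, the latter being -0.02 without Sox17-cKO 2. With 2 libraries a group, differences of this size were not detectable, and the values do not show that the levels were alike.

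The ligand and homologous factor genes had too few UMIs in RT-like cells for the filter. Fgf12 was at 22.7 and 24.2 CPM in controls and 8.27 and 6.02 CPM in Sox17-cKO, and Fgf9 at 18.9 and 20.8 against 12.4 and 15.04 CPM, the groups not overlapping for either, nor for Fgf2 (7 UMIs), as was so in that direction for 15.4% of the genes that passed the filter. When the filter was left out, neither passed (Fgf12 log2 -1.83 ± 0.74 SE, adjusted p = 0.519, Fgf9 log2 -0.55, adjusted p = 0.948, both by edgeR). The barcodes with more than 4500 detected genes, which lie outside the range used in the study, held 242 more RT-like barcodes (30, 120, 10 and 82) and were added as an alternative chosen after the data were seen. The study set its limits for cell quality and to remove duplicates, and no doublets were removed from these barcodes here. They were named only by their best correlation with the class profiles. In control 2 the RT-like UMIs rose from 577659 to 5983628 with them. Fgf12 then had 18.4, 16.9, 4.55 and 5.40 CPM from 151 UMIs, Fgf9 32.3, 25.1, 12.1 and 18.4 CPM from 277 UMIs and Fgf18 19.8, 13.4, 12.1 and 2.70 CPM from 126 UMIs. In each of these 3 genes both Sox17-cKO libraries were below both controls, as were 18.1% of 13930 genes with at least 10 UMIs. Fgf2 now overlapped between the groups (10.3, 5.35, 6.07 and 5.89 CPM), as did Fgf13 (19.1, 8.86, 4.55 and 12.8 CPM) and Fgf1 (1.47, 2.17, 0 and 2.94 CPM). Fgf12 (log2 -1.76 ± 0.43 SE), Fgf9 (log2 -0.79 ± 0.34 SE) and Fgf18 (log2 -1.67 ± 0.68 SE) had edgeR adjusted p = 0.159, 0.622 and 0.558 and did not pass, while each had an unadjusted p under 0.05, as did 7.83% of 11622 genes. Fgfr2 (485, 535, 476 and 574 CPM) and Fgfr1 (57.3, 72.5, 47.0 and 78.3 CPM) overlapped between the groups in these cells. The fibroblast markers summed to 34.6 and 37.8 CPM in control and 60.2 and 95.2 CPM in Sox17-cKO RT-like cells, and their part in any of these values was not tested.

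**Figure D4:**
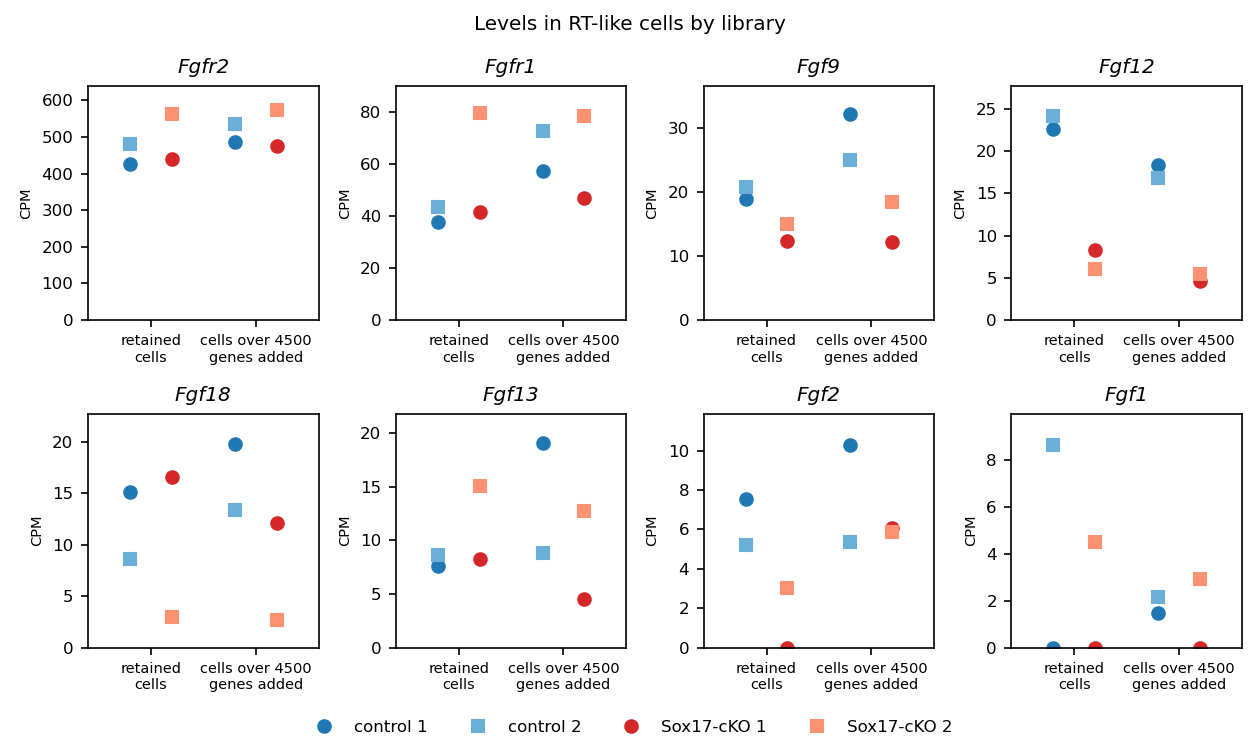
CPM (y axis, from 0) of 8 genes in RT-like cells of each library, for the retained cells (left in each panel) and with the barcodes over 4500 detected genes added (right). Fgf12 and Fgf9 lie lower in both Sox17-cKO libraries in both sets, without passing the test, while Fgfr2 overlaps between the groups. The right set contains the retained cells and barcodes above the study's upper limit.

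Outside the RT, 10 of 40 tested values had both Sox17-cKO libraries on one side of both controls. Fgfr1 in SV Sertoli-like cells (18.4 and 23.3 against 28.1 and 48.2 CPM, log2 0.89 ± 0.53 SE) was higher, as were 15.6% of genes there. Fgf18 in tubule Sertoli-like cells was higher (16.3% of genes), Fgfr3 higher in spermatocyte-like (9.96%) and lower in differentiating spermatogonia-like cells (5.65%), where Fgf9 was lower too. In peritubular myoid-like cells Fgf2 and Fgfr1 were higher (16.1% of genes) and Fgf12 lower (7.29%), and in Leydig-like cells Fgf2 and Fgfr2 were lower (10.2%). None of these values passed the test. In the classes and directions where none of the 10 genes with a test showed such a separation, the share of all genes that were higher was 18% in RT-like, 16% in undifferentiated and 8.38% in differentiating spermatogonia-like, 13.4% in fibroblast-like, 14.7% in interstitial stroma-like, 16.7% in pericyte-like, 14.6% in Leydig-like, 15.4% in endothelial-like and 12.9% in macrophage-like cells. The share that were lower was 10.6% in SV and 4.41% in tubule Sertoli-like, 6.81% in undifferentiated spermatogonia-like, 5.99% in spermatocyte-like, 6.14% in fibroblast-like, 8.71% in interstitial stroma-like, 8.86% in pericyte-like, 14.6% in endothelial-like and 10.3% in macrophage-like cells.

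The other genes of the pathway were taken from 9 lists with 96 genes. In RT-like against all Sertoli-like cells, 56 were tested, 21 were higher and 9 lower, and the share that passed was close to the 52.4% of all genes, against which the counts of each list also stand (24.3% higher and 28.2% lower). The median was log2 0.26, against -0.09 over all genes tested. Levels in this comparison are of RT-like against all Sertoli-like cells, SV cells included. Of the 21 higher genes, 7 were kept by the filter through RT-like cells alone, Spry1 among them, so that their passing lends no support. The counts of higher genes in the lists that follow include these genes and are given as a description. Of the feedback inhibitors, which act downstream of the receptors, 5 of 9 tested were higher and 1 lower. Spry1, an inhibitor of receptor signalling, had 92.6 against 1.17 CPM (log2 6.02 ± 0.34 SE), and Dusp5, an ERK phosphatase, 91.2 against 7.11 CPM (log2 3.40 ± 0.21 SE, edgeR adjusted p = 4.3e-13), with 80.4 CPM in SV Sertoli-like cells. Dusp6, another ERK phosphatase, was lower, with 11.01 against 33.0 CPM (log2 -2.11 ± 0.36 SE, edgeR adjusted p = 2.0e-05). Of the target genes, the immediate early gene Egr1 was higher (2145 against 359 CPM, log2 2.37 ± 0.16 SE, edgeR adjusted p = 1.4e-12), 1 of the 4 tested was lower and the list was thus divided.

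Of the heparan sulfate proteoglycans, which hold ligands at the cell surface and in the matrix, 4 of 7 tested were higher and 1 lower in RT-like cells. Hspg2, which encodes perlecan, had 79.8 against 4.63 CPM (log2 3.82 ± 0.26 SE, edgeR adjusted p = 2.9e-12), while Col18a1 was lower (log2 -0.86 ± 0.15 SE, edgeR adjusted p = 3.7e-05). The genes of heparan sulfate synthesis and trimming had 6 of 13 higher and 3 lower. The sulfotransferase Hs6st2 was lower, with 16.1 against 79.0 CPM (log2 -2.57 ± 0.27 SE, edgeR adjusted p = 9.4e-09). Of the decoy receptor, co-receptors and Fgf binding proteins 3 of 5 were higher and 0 lower, of the Ras-ERK cascade 1 of 9 higher and 2 lower (Mapk3, which encodes ERK1, log2 -0.84 ± 0.17 SE, edgeR adjusted p = 0.00016), and of the adaptors 0 of 7 higher and 1 lower. The 1 tested sodium channel gene was higher, and the 1 tested gene of the other Fgf genes did not pass.

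In SV against tubule Sertoli-like cells 53 were tested, 14 were higher and 7 lower, where 13.7% and 15.1% of all genes were (median log2 0.12, against -0.08 over all genes). Of the 14 higher genes, 4 were kept by the filter through SV Sertoli-like cells alone, Myc among them. The counts of higher genes in the lists may include these and are given as a description. The target gene Egr1 was again higher (1185 against 316 CPM, log2 1.91 ± 0.09 SE, edgeR adjusted p = 5.2e-27), as were the target Myc (60.4 against 0.906 CPM, log2 6.00 ± 0.39 SE), Dusp5 (80.4 against 3.38 CPM, log2 4.45 ± 0.28 SE, edgeR adjusted p = 3.6e-21) and the proteoglycan Sdc4 (1465 against 731 CPM, log2 0.96 ± 0.08 SE, edgeR adjusted p = 9.2e-16). Lower were Hs6st2 (log2 -1.69 ± 0.22 SE), the co-receptor gene Flrt1 (log2 -1.31 ± 0.19 SE), the decoy receptor gene Fgfrl1 (log2 -1.12 ± 0.29 SE) and the target Etv1 (log2 -2.07 ± 0.54 SE), with edgeR adjusted p from 2.3e-09 to 0.0020. Of the feedback inhibitors 4 of 8 tested were higher and 0 lower, and of the proteoglycans 4 of 8 were higher and 1 lower.

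**Figure D5:**
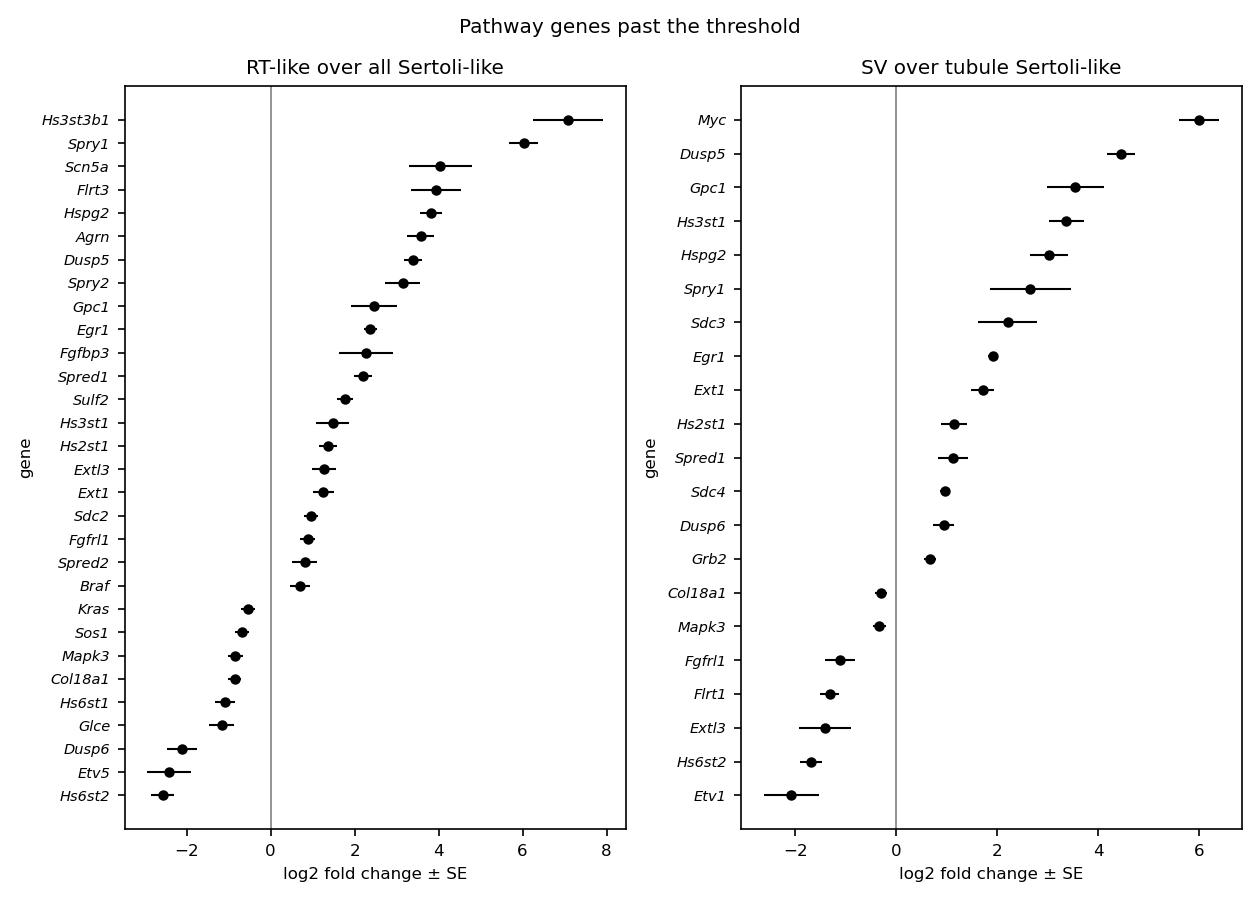
Log2 fold change ± SE (x axis) of the genes of the 9 pathway lists that passed the edgeR test, in RT-like over all Sertoli-like cells (left, 30 genes) and SV over tubule Sertoli-like cells (right, 21 genes). Spry1, Dusp5, Egr1 and Hspg2 lie on the higher side in both panels and Hs6st2 on the lower side in both. Of the higher genes, 7 on the left, Spry1 among them, were kept by the filter through RT-like cells alone. On the right, 4 were kept through SV Sertoli-like cells alone, Myc among them.

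Without Sox17, 1 of the 38 pathway genes tested in RT-like cells passed, where 0.0882% of all genes did. It was the 6-O-endosulfatase Sulf1, which trims heparan sulfate, with 159, 169.7, 20.7 and 28.6 CPM (log2 -2.70 ± 0.35 SE, edgeR adjusted p = 0.0476). The call was lost without integration of the libraries (log2 -1.97 ± 0.34 SE, edgeR adjusted p = 0.109). The share of all genes that passed was 0.0552% there and 4.04% with the replicate number as a block. Flrt1 (log2 -1.18 ± 0.39 SE, edgeR adjusted p = 0.619), the feedback inhibitor gene Spred1 (log2 0.75 ± 0.33 SE, edgeR adjusted p = 0.874) and Hspg2 (log2 -0.54 ± 0.34 SE, edgeR adjusted p = 0.997) had the next smallest p and did not pass. The median over the 38 genes was log2 -0.12, against -0.0025 over all genes tested.

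Other Fgf genes of the list had their highest levels outside the RT. Fgf11, a further homologous factor, had 42.9 CPM ± 21.3 in spermatocyte-like cells, Fgf7 16.3 CPM ± 2.61 in interstitial stroma-like cells, Fgf22 12.02 CPM ± 3.25 in differentiating spermatogonia-like cells and Fgf8 10.7 CPM ± 4.05 in undifferentiated spermatogonia-like cells (SD, n = 4).

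The genes most like each of the 10 over the means of the 13 classes were sought among 13749 genes with at least 200 UMIs, by Pearson's r on log2(CPM + 1), a description over points that share libraries. Fgfr2 was closest to Kcnk1 (r = 0.965), Hspa12a and Il17rc (both 0.936), all highest in RT-like cells. Fgf2 was closest to C1qtnf3 (0.987) and the collagen genes Col6a1 (0.983) and Col6a2 (0.979), highest in fibroblast-like cells. Fgfr1 was closest to Ctdsp2 (0.967), Evc (0.964) and Fut11 (0.963), and Fgfr3 to Jag2 (0.946), Pcdh17 (0.939) and Ebf3 (0.939). Fgf18 (Gm15498, 0.944), Fgf13 (Ercc2, 0.917) and Fgf12 (Eva1a, 0.878) had less close neighbours, and Fgf1, Fgf9 and Fgfr4 had too few UMIs for this comparison.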

How the data were processed

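Droplet-based single-cell RNA-seq (10x 3′ kit) was done on 2 control and 2 Sox17-cKO libraries of dissected P14 testis, and after the first digestion the supernatant with interstitial cells was discarded, which lowers the number of such cells. The authors deposited UMI counts per gene and barcode for each library, unnormalized, made with Cell Ranger 6.0.2 (control 1, Sox17-cKO 1) and 6.1.2 (control 2, Sox17-cKO 2) on mm10 according to the submitters' processing notes. The aggregated matrices were not used here.

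Barcodes with 1000 to 4500 detected genes were retained. The study's limit of 1% mitochondrial UMIs would leave 212 cells and was not applied. Libraries were integrated with Seurat 5.3.0 (R 4.3.3; 2000 variable genes without the 10 genes, the pathway genes and Sox17; 20 components; resolution 0.4), and clusters were named from markers. The SV class was taken from a cluster at resolution 0.8, a choice made after the data were seen. Scrublet calls were not removed, except as an alternative. Sums of UMIs over the cells of a class in each library were tested with edgeR 4.0.16 (quasi-likelihood, TMM, filterByExpr, two-sided, Benjamini-Hochberg threshold 0.05), with the library as a block between classes. The study's methods test single cells, which are not replicates. DESeq2 1.42.0, no filter, no integration, resolution 0.8, a mitochondrial limit of 10%, removal of high doublet scores, a replicate block and leaving out each library were alternatives, and adding barcodes over 4500 detected genes was one chosen after seeing the data. Scripts were tested on simulated data. Shares of cells carry 95% Clopper-Pearson intervals over cells pooled from the 4 libraries, which do not hold the spread between libraries. A count of 0 is read as up to 3 UMIs over the group, and both give counting error only. Levels rest on 89969877 to 107203219 UMIs per library. No division by gene length was made, since 3′ counts give 1 count per molecule.

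The members and lists were chosen with earlier results of these data known. For each comparison of classes, at most 4 pathway genes on either side were named, by smallest adjusted p among those past the threshold, as were the 4 with the lowest p between genotypes in RT-like cells, and the genes most like a member were the 3 with the highest r.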

Additional observations from a re-analysis of the deposited data

Results flagged for a closer look

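In 5 of 58 sets of 4 library values with at least 20 UMIs, 1 library lay farther from the rest than Dixon's 95% critical value of 0.829 allows, and chance alone gives about 1 in 20. Fgfr1 in RT-like cells had 79.7 CPM in Sox17-cKO 2, against at most 43.3 CPM in the other libraries. The same library was high for Fgfr1 in undifferentiated spermatogonia-like cells, with 44.5 CPM. Fgfr1 in endothelial-like cells was low in Sox17-cKO 1, with 61.2 CPM. Fgf18 in fibroblast-like cells was high in Sox17-cKO 1, with 14.3 CPM. Fgfr2 in Leydig-like cells was high in control 1, with 137 CPM from 17 UMIs of 13 cells.

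Mesothelial-like cells entered no comparison, since they numbered 17 (2, 9, 3 and 3 per library). Their mean levels of Fgf1 (73.5 CPM, 15 UMIs), Fgf2 (124 CPM, 14 UMIs) and Fgf9 (33.1 CPM, 5 UMIs) were above the highest of the 13 compared classes (26.1, 110.2 and 16.8 CPM). So was that of Fgf18 (14.6 CPM against 10.8 CPM), from 3 UMIs.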

How the results depend on the processing

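None of the 42 genotype tests of the 10 genes passed under any alternative (481 values, 51 with a changed sign). The number of genes past the edgeR threshold in RT-like cells was 6, and it was 4 without integration, 16 below 10% mitochondrial UMIs, 49 with barcodes over 4500 detected genes added, 99 with no filter, 17 with DESeq2 and 11 to 106 when 1 library was left out. With the replicate number as a block it was 275. Deviations of same-numbered libraries correlated at 0.15 to 0.73 over 13 classes, so these libraries shared part of their deviations. Cell numbers went the same way, with 153 and 127 interstitial stroma-like cells in control 1 and Sox17-cKO 1 against 703 and 691 in control 2 and Sox17-cKO 2. There were only 2 pairs, the labels name no shared litter or day, and the number coincides with the Cell Ranger version. What same-numbered libraries share, and whether they were paired, can therefore not be told. The main test leaves this number out. In the other 12 classes, where the number was 0, it was 0 to 43 with that block (tubule Sertoli-like cells highest), 0 to 94 when 1 library was left out, 0 to 12 with no filter, up to 2 with DESeq2 and with the added barcodes, and 0 in each class under the other 4 alternatives. The causes of these shifts were not tested. Of the 10 genes, 6 were past the threshold between RT-like and Sertoli-like cells (4 of them kept by the filter through RT-like cells alone) and 3 to 5 when 1 library was left out. Without control 2 it was 3, since Fgf13 did not pass and Fgf1 and Fgf12 were not tested. For SV against tubule Sertoli-like cells the number was 3, Fgf18 kept through tubule cells alone, with 1 under DESeq2 and 1 to 3 when 1 library was left out (1 without Sox17-cKO 2). Among neighbouring classes 16 pairs passed, out of 12 for each gene that the filter kept. Over all genes 51.2% passed in such pairs, which need not be neighbours in the order of those genes. The 16 include the highest steps of Fgf9 and Fgf1, which have no valid test. With barcodes over 4500 detected genes added, 30 passed.

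Of the 51 sign changes, 16 were in the 12 genotype differences followed under each alternative. None of these passed, and they were as follows (log2). With barcodes over 4500 detected genes added, Fgfr1 in RT-like cells was -0.013 and Fgfr4 in Leydig-like cells -0.20. Fgfr4 in Leydig-like cells was -0.047 without integration, -0.022 at resolution 0.8 and -0.050 with DESeq2. Fgf2 in fibroblast-like cells was -0.0033 below 10% mitochondrial UMIs. After removal of the highest doublet scores, Fgfr1 in interstitial stroma-like cells was -0.00016 and Fgf1 in pericyte-like cells 0.22. When 1 library was left out, the range was -0.020 to 0.91 for Fgfr1 in RT-like cells, -0.085 to 0.26 for Fgfr2 in RT-like cells, -0.21 to 0.24 for Fgf2 in fibroblast-like cells, -0.015 to 0.87 for Fgf18 in fibroblast-like cells, -0.11 to 0.18 for Fgfr1 in interstitial stroma-like cells and -1.39 to 0.90 for Fgf1 in pericyte-like cells.

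Depth limits the rarer genes. In RT-like cells Fgf1, Fgf2, Fgf9, Fgf12, Fgf13 and Fgf18 had 7 to 30 UMIs each and were filtered from the genotype test, and mesothelial-like and endothelial-like cells numbered 17 and 72.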
